A study of Mus musculus with 6 samples.

Results

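The PYHIN genes form a cluster on mouse chromosome 1 whose products bind nucleic acids. The 8 members described here, Aim2, Ifi204, Ifi203, Mndal, Mnda, Pyhin1, Pydc4 and Pydc3, were taken by gene symbol from a table of 46603 genes. Of these, 7 passed the filter on low counts and were tested among 15440 genes, while Pydc3 did not pass. In GENCODE M21, the annotation of build GRCm38 used here, Pyhin1 is listed as Ifi209, Pydc4 as Ifi213, Pydc3 as Ifi208 and Mnda as Ifi211. The members lie between the ends of Aim2 and Ifi203 at chr1:173350879-173942672, a span of 592 kb.

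RNA-Seq was performed on CD11B+ cells, taken with magnetic beads from whole kidneys of male mice aged 10 to 12 weeks. The mice had undergone IRI-AKI by a 28-minute clamp of the left and right renal pedicles, and were killed on day 3. Every mouse carried the Rosa26-LSL-RARaT403X allele, which encodes a dominant negative retinoic acid receptor behind a stop cassette. PTEC DN RAR mice were PEPCK CRE+, so that the mutant receptor was expressed in proximal tubular epithelial cells (PTECs), and Cre- control mice were PEPCK CRE-. There were 3 libraries of each genotype, each taken here as 1 mouse. No library came from an uninjured kidney, and the mutant receptor is directed to PTECs by the PEPCK promoter, while the sorted cells were CD11B+, in which recombination was not examined here. The PEPCK-Cre line was kept on a mixed 129svJ; C57BL/6 background and the Rosa26 line on C57BL/6, whereas the reference genome is C57BL/6J, and which strain's copy of the cluster each mouse carried was not examined. The comparison addresses how blocking retinoic acid signaling in the tubule alters the inflammatory state of renal monocytes and macrophages after injury.

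Most PYHIN proteins pair an N-terminal pyrin domain, which binds pyrin domains of other proteins, with 1 or more C-terminal HIN domains, which bind double-stranded DNA. AIM2 responds to DNA in the cytosol by recruiting the adaptor ASC (gene Pycard) and caspase 1 into an inflammasome, which matures interleukin 1 beta and opens gasdermin D pores. Several relatives, p204 (gene Ifi204) among them, were first found as interferon-inducible nuclear proteins of leukocytes, and p204 has been tied to the STING route that induces type I interferon.

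The start regions of most members carried a like short run of letters, shown here to set the copies of the family beside each other. Windows from 250 bases before to 50 bases after each RefSeq start (GRCm38.p6) were searched on both strands for GAAANNGAAA, the core of the interferon-stimulated response element, and for TTCNNNGAA, the gamma-activated site. RefSeq entries were matched for 7 of the 8 members, Ifi204 having none in the table used. In the lines that follow, read 5′ to 3′ on the strand of the gene, capitals mark the response element letters or the letters at the same place.
Pydc4: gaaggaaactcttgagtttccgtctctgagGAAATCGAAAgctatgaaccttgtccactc
Ifi203: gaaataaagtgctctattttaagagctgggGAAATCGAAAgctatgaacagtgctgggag
Mnda: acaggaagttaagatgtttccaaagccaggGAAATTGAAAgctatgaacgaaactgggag
Pyhin1: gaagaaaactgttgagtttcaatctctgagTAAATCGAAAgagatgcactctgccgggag
AI607873: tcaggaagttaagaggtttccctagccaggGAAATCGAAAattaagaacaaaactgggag
Aim2: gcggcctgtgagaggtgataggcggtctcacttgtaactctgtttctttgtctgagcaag
These stretches lie at chr1:173599316-173599375 (minus strand) for Pydc4, chr1:173942498-173942557 (minus) for the second start of Ifi203, chr1:173913054-173913113 (minus) for Mnda, chr1:173630750-173630809 (plus) for Pyhin1, chr1:173741821-173741880 (minus) for AI607873, a PYHIN gene that is not a member, and chr1:173420511-173420570 (plus) for Aim2, ending where the first exon of that window begins in M21. The stretch of Pydc3 had the same 60 letters as that of Pydc4. At its first start, Mndal had the same 60 letters as Ifi203, but there they fall in an exon of M21. The form GAAATCGAAA stood 73 bases before the start of Pydc4, 58 before Pydc3, 36 before Mndal and 35 before the second start of Ifi203. In Mnda, 37 bases before the start, it differed by C6T, and in Pyhin1, 79 bases before, by G1T, counted from the first capital and with the letter of GAAATCGAAA first, so the Pyhin1 window held no GAAANNGAAA. The Aim2 window held none either, on either strand, though like that of Pyhin1 it came within 1 letter of it. Of 32851 RefSeq windows of this length, 3.44% held GAAANNGAAA and 16 held GAAATCGAAA, 7 of them among the 14 windows of PYHIN genes. That form was picked as the most frequent match in the PYHIN windows, some of which are copies of each other. Its frequency among them therefore follows from the choice and is no test. TTCNNNGAA, present in 8.3% of all windows, was in none of the members' windows. These are matches of letters, and no binding was measured.

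The members also share coding sequence, which bears on what the counts can show. Reads aligned to more than 1 place were left out of the counts, and they made up between 42.93% and 47.75% of alignments per library. As read length was not given in the sources used here, members' transcripts in M21 were divided into overlapping windows of 50, 75 and 100 bases and each was sought in transcripts of other genes. At 75 bases, 63.6% of the windows of Mnda were also found in another gene, mainly in Ifi205 (40.6%) and Ifi204 (23.0%). Pyhin1 followed with 23.1%, all of them also in BC094916, and then Ifi204 with 13.2%, Pydc3 with 11.8%, Mndal with 11.1%, Pydc4 with 8.1% and Ifi203 with 5.7%. Aim2 shared none. The count of Mnda therefore rests on the smaller part of its transcript, and Mnda and Ifi205 are uncertain relative to each other. The longest coding run shared letter for letter by Mnda and Ifi205 was 495 bases, against 253 for Pyhin1 and BC094916, 223 for Mnda and Ifi204, 149 for Pydc4 and Pydc3, 76 for Ifi203 and Mndal, and 11 for Aim2 and Ifi204. Only these chosen pairs were compared, and other pairs of the family were not measured. For the 2 longest runs among them, the first 75 bases that lie within 1 exon are shown.
Mnda and Ifi205: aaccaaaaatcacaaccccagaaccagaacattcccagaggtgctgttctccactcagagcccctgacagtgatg
Pyhin1 and BC094916: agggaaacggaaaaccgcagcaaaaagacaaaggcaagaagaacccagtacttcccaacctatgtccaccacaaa
The first is at chr1:173901968-173902042 (minus strand) in Mnda and chr1:174017582-174017656 (minus) in Ifi205. The second is at chr1:173638882-173638956 (plus) in Pyhin1 and chr1:173527888-173527962 (minus) in BC094916. In addition, exons of Mndal and Ifi203 overlap by 37 bases.

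**Figure D1:**
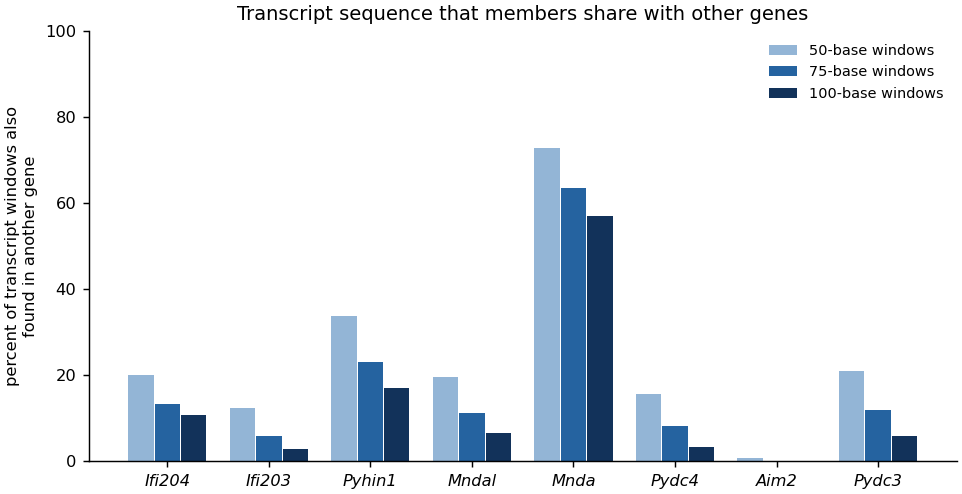
Percent of the overlapping 50-, 75- and 100-base windows of each member's annotated transcripts that also occur in a transcript of another gene. Mnda stands above the other members at each window length, at 63.6% for 75 bases, and Aim2 is at 0.0% for 75 bases.

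Depth was between 29318041 and 46517005 counts per library, and the members together held between 13870 and 43607 reads. Levels are given as CPM, counts scaled to library size with TMM factors. Differences are log2 fold changes of PTEC DN RAR against Cre- control, with standard error (SE), and adjusted p values come from the quasi-likelihood test of edgeR, adjusted over all genes tested by the Benjamini-Hochberg method. The labels number the replicates and give each its own title. The p values set each difference against the spread between these 3 libraries of each genotype. In edgeR that spread is moderated for each gene by the trend over all genes.

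In CD11B+ cells of PTEC DN RAR mice, 5 members, Ifi204, Ifi203, Mndal, Mnda and Pyhin1, were lower than in Cre- controls, at between 46.2% and 52.5% of the control level. None was called higher. Aim2 and Pydc4 did not pass the test. Of all genes tested, 17.1% were lower and 23.6% higher, so calls in this comparison are common. The median log2 fold change of the 7 tested members was −0.99, against 0.04 over all genes. For the same 5 members every PTEC DN RAR library lay below every control library, which held for 24.2% of all genes tested, and the opposite order, held by no member, for 29.2%. No member was higher at an unadjusted p under 0.05 either, and DESeq2 and limma-voom likewise called 5 lower and 0 higher.

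**Figure D2:**
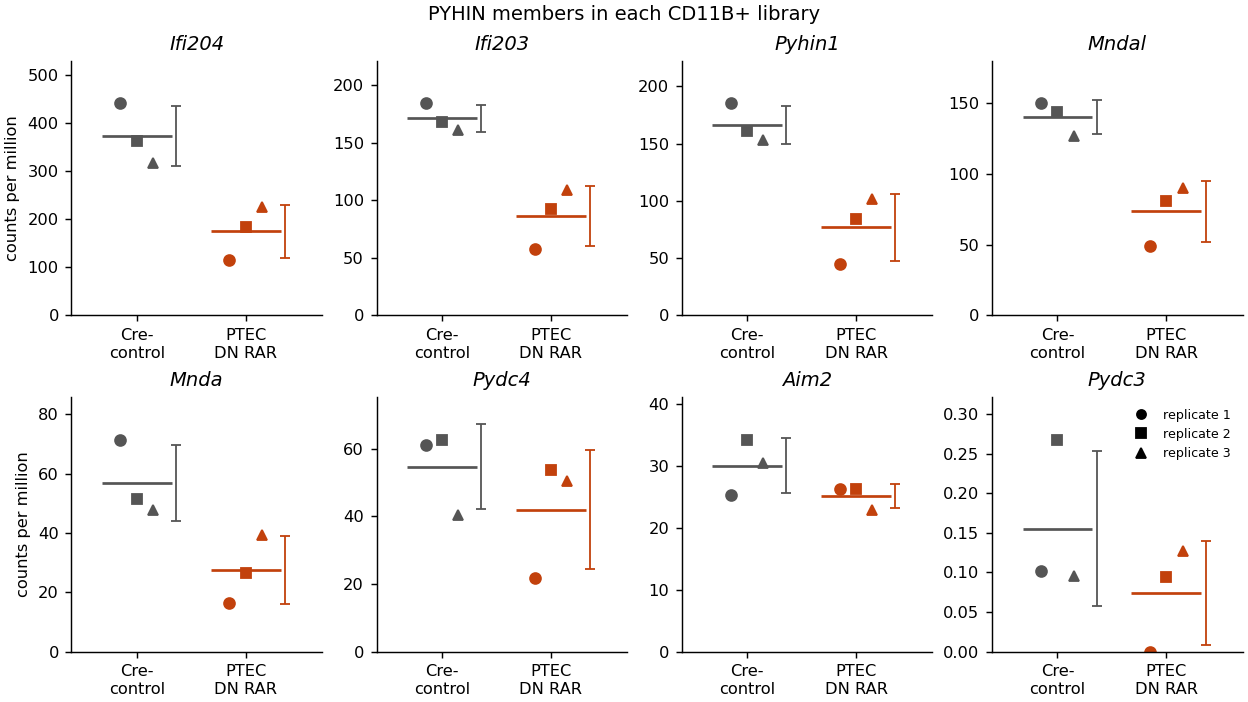
CPM of each member in the 3 Cre- control (grey) and 3 PTEC DN RAR (orange) libraries, with the mean as a line and the SD as a bar, each panel on its own axis from 0. The groups do not overlap for Ifi204, Ifi203, Pyhin1, Mndal and Mnda, and they overlap for Pydc4, Aim2 and Pydc3.

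Aim2, the cytosolic DNA sensor of the family, was at 25.4, 34.3 and 30.5 CPM in Cre- controls 1, 2 and 3 and at 26.3, 26.3 and 22.9 CPM in PTEC DN RAR mice 1, 2 and 3. The groups overlapped, control 1 being below PTEC DN RAR mice 1 and 2. The log2 fold change was −0.25 (SE 0.13, 95% interval −0.54 to 0.04, edgeR adjusted p = 0.142), an interval that leaves out falls as deep as the estimates of the 5 lower members. Without Cre- control 1 the difference passed the test, at −0.37 with an edgeR adjusted p of 0.0308.

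Ifi204, which encodes the nuclear and cytosolic DNA-binding protein p204, was the most abundant member. It was at 440, 363 and 317 CPM in the controls and at 115, 183 and 225 CPM in PTEC DN RAR mice. Every control library was above every PTEC DN RAR library, and the lowest control was 1.41 times the highest PTEC DN RAR library. Mean levels were 373 ± 62.1 and 174 ± 55.1 CPM (SD, n = 3 each), and the log2 fold change was −1.10 (SE 0.23, 95% interval −1.61 to −0.59, edgeR adjusted p = 0.00585).

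Ifi203 and Mndal, whose start regions match over the stretch described above, encode interferon-inducible HIN proteins of leukocytes. Ifi203 was at 184, 168 and 161 CPM in the controls and at 57.6, 92.7 and 109 CPM in PTEC DN RAR mice. Mndal was at 150, 144 and 127 CPM against 49.5, 81.1 and 90.2 CPM. In both genes the controls lay close together, the highest being 1.15 and 1.18 times the lowest, whereas PTEC DN RAR mouse 1 was well below the other two. The log2 fold change was −0.99 for Ifi203 (SE 0.20, edgeR adjusted p = 0.0056) and −0.93 for Mndal (SE 0.20, edgeR adjusted p = 0.00668).

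Pyhin1 and Mnda are the members whose counts are most exposed to shared sequence. Pyhin1 was at 185, 161 and 153 CPM in the controls and at 44.7, 83.8 and 102 CPM in PTEC DN RAR mice, with a log2 fold change of −1.11 (SE 0.25, edgeR adjusted p = 0.00907). Mnda was at 71.5, 51.5 and 47.7 CPM against 16.4, 26.6 and 39.4 CPM, with a log2 fold change of −1.05 (SE 0.29, edgeR adjusted p = 0.0186). Neither gene's groups overlapped, but for Mnda the lowest control was only 1.21 times the highest PTEC DN RAR library. The call for Mnda was lost without Cre- control 1, at a log2 fold change of −0.86 and an edgeR adjusted p of 0.0546, and without PTEC DN RAR mouse 2, at −1.03 and 0.0515.

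Pydc4 and Pydc3 are named for their pyrin domain, and their start regions are identical over the stretch shown, yet their levels were far apart. Pydc4 was at 61.1, 62.7 and 40.3 CPM in the controls and at 21.7, 53.8 and 50.3 CPM in PTEC DN RAR mice. PTEC DN RAR mouse 1 was far below the rest, while the other two lay within the range of the controls. The log2 fold change was −0.38 (SE 0.31, 95% interval −1.09 to 0.32, edgeR adjusted p = 0.351), an interval that holds both no difference and falls as deep as that of Ifi203. The estimate was −0.07 without PTEC DN RAR mouse 1, −0.61 without PTEC DN RAR mouse 2 or Cre- control 3, −0.58 without PTEC DN RAR mouse 3, and −0.18 under pan-leukocyte scaling, and it passed the test in none of these. Pydc3 had 4, 8 and 3 reads in the controls and 0, 4 and 6 reads in PTEC DN RAR mice. A count of 0 at the depth of that library allows up to 3 reads or 0.0712 CPM, for counting error only, and no difference was detectable at this depth.

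**Figure D3:**
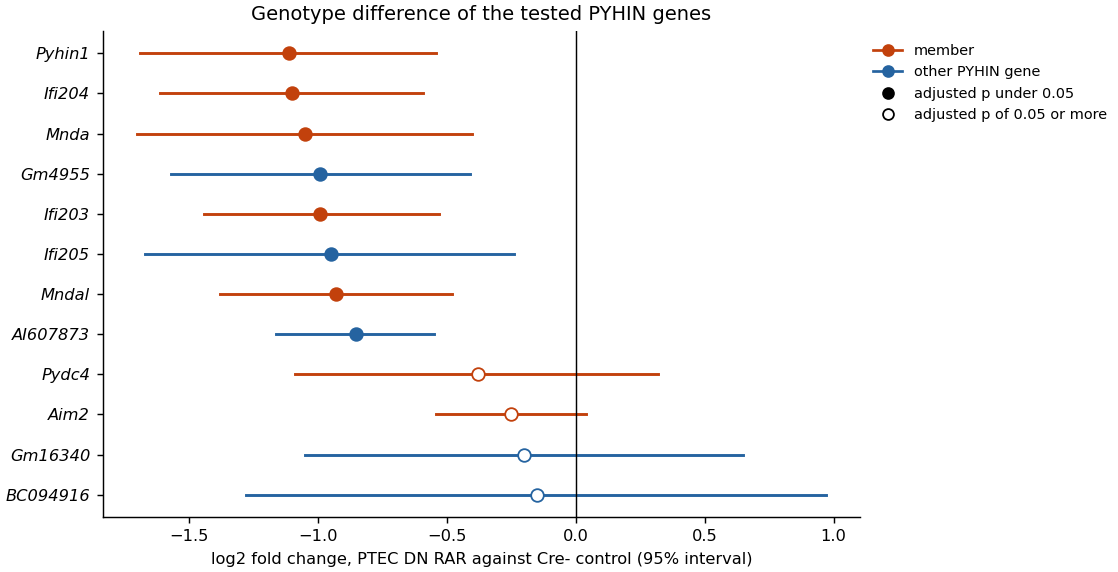
Log2 fold change of PTEC DN RAR against Cre- control with 95% interval for the 12 tested PYHIN genes, members in orange and other PYHIN genes in blue, filled where the edgeR adjusted p was under 0.05. All 12 point estimates are below 0, BC094916 turning to 0.04 under pan-leukocyte scaling, and 8 genes lie between −1.11 and −0.85 with intervals that leave out 0.

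The count table held 6 further PYHIN genes, of which 5 were tested, 3 were lower and 0 higher, at an unadjusted p under 0.05 and by DESeq2 and limma-voom too. AI607873 (Ifi207 in M21) was at 289, 275 and 264 CPM in the controls and 120, 166 and 172 CPM in PTEC DN RAR mice, a log2 fold change of −0.85 (SE 0.13, edgeR adjusted p = 0.00193). Gm4955 (Ifi206) was at 66.1, 61.0 and 45.7 CPM against 17.5, 32.3 and 37.1 CPM, with a log2 fold change of −0.99. Ifi205 was at 14.0, 14.4 and 10.7 CPM against 3.73, 6.27 and 10.1 CPM, with a log2 fold change of −0.95. None of the 3 overlapped between groups. The call for Ifi205 was lost when Cre- control 1 or 2 or PTEC DN RAR mouse 1 or 2 was left out, with edgeR adjusted p between 0.0685 and 0.0951, and under pan-leukocyte scaling (−0.74, edgeR adjusted p = 0.113), where 2 of the 5 were lower. BC094916 (Ifi214), whose transcripts share windows with Pyhin1, was at 0.263 to 1.11 CPM and Gm16340 (Ifi203-ps) at 0.884 to 2.31 CPM, with log2 fold changes of −0.15 and −0.20 that did not pass the test. Ifi202b had 1 read in all libraries together. Of 46 annotated genes within 500 kb of the cluster that are not PYHIN genes, 36 had no counts and 1 was tested. That gene, Cadm3, an adhesion molecule of neurons, was at 1.69, 1.38 and 0.348 CPM in the controls and 2.89, 2.90 and 2.06 CPM in PTEC DN RAR mice, a log2 fold change of 1.18 (edgeR adjusted p = 0.0674). Its groups did not overlap, and it was called higher with DESeq2 (adjusted p = 0.0364), limma-voom (0.0454), no filter (0.0316), pan-leukocyte scaling (0.0289) and a replicate block (0.0323), and when Cre- control 1 was left out.

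Per kilobase of merged exons, the scale on which genes can be compared, the mean control levels were 105 CPM for Ifi204, 46.9 for Pyhin1, 38.6 for Mndal, 31.9 for Mnda, 25.5 for Ifi203, 8.58 for Aim2, 8.0 for Pydc4 and 0.0295 for Pydc3. These levels are not corrected for sequence whose reads were left out as aligned to more than 1 place, which makes the place of Mnda, with 56.9% to 72.8% of its windows shared, uncertain. On this scale, by the mean over all 6 libraries (76.9 CPM), Ifi204 was above 96.6% of all genes tested. Neighbours in this order whose control libraries overlapped were Mnda and Mndal, Mnda and Ifi203, and Aim2 and Pydc4. With the longest transcript as length, Ifi204 stayed first and Pydc3 last, but Mndal came before Pyhin1, Ifi203 before Mnda and Pydc4 before Aim2. In PTEC DN RAR mice the means per kilobase of merged exons were 49.0 CPM for Ifi204, 21.6 for Pyhin1, 20.3 for Mndal, 15.4 for Mnda, 12.9 for Ifi203, 7.19 for Aim2 and 6.13 for Pydc4.

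The summed level of the 8 members was 1120, 985 and 876 CPM in the controls and 331, 548 and 638 CPM in PTEC DN RAR mice, or 50.9% of the control mean. The division of these reads among members, which does not depend on how libraries are scaled, was more even. Ifi204 held 37.5% ± 1.69 of the members' reads in controls and 34.5% ± 0.916 in PTEC DN RAR mice (SD, n = 3), and Pyhin1 16.8% ± 0.575 and 14.9% ± 1.29. Aim2 held 3.08% ± 0.697 and 5.44% ± 2.23, and Pydc4 5.48% ± 0.883 and 8.08% ± 1.65. For these 4 members the groups did not overlap, the first pair being lower and the second pair higher in PTEC DN RAR mice. Without PTEC DN RAR mouse 1 the difference in share went from 2.37 to 1.13 percentage points for Aim2 and from −1.86 to −1.14 for Pyhin1, and without PTEC DN RAR mouse 2 from 2.6 to 1.73 for Pydc4. Over all leave-one-out fits it ran from 1.13 to 3.29, −2.39 to −1.14 and 1.73 to 3.37 in these members. Shares of Ifi203, Mndal, Mnda and Pydc3 overlapped. For each of the 4 the two-sided exact permutation test gave p = 0.1, the smallest that 3 mice against 3 allow, and 0.2 after adjustment over the 8 members, so none passed. PTEC DN RAR mouse 1 had the most unequal Aim2 share, at 7.92%, since its Aim2 count was like that of the other libraries while its family total was the lowest.

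**Figure D4:**
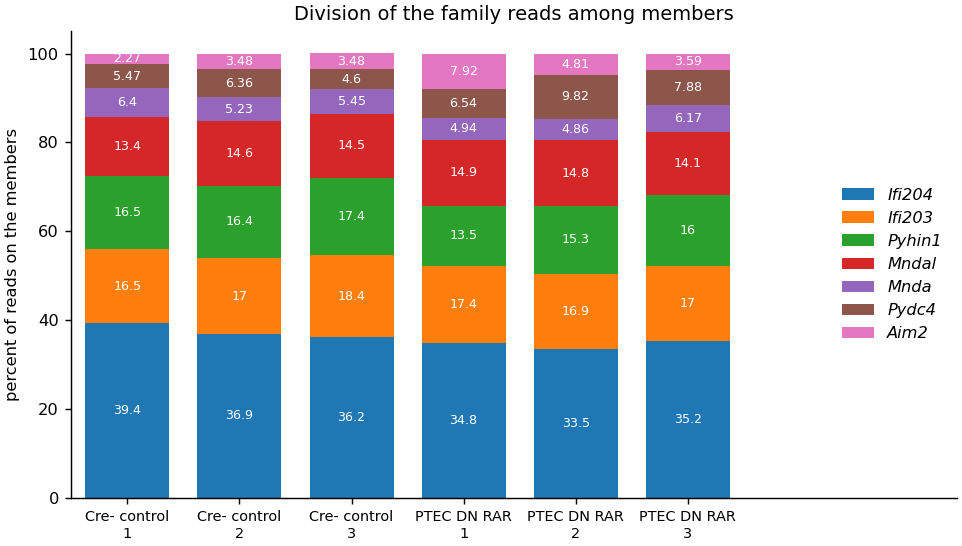
Percent of the reads on the 8 members that fell on each member, by library, with values written in the bars and Pydc3 too low to draw. Ifi204 takes the largest part of each library, from 33.5% to 39.4%, and the Aim2 part runs from 2.27% in Cre- control 1 to 7.92% in PTEC DN RAR mouse 1.

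Most members had their lowest value within a genotype in the same mouse, with Aim2 as the exception. PTEC DN RAR mouse 1 had the lowest value of its group for every member but Aim2, and control 3 the lowest of the controls for every member but Aim2. Aim2 was lowest in control 1 and in PTEC DN RAR mouse 3. The mean log2 CPM of the 7 tested members was 6.83, 6.74 and 6.53 in the controls, against 5.29, 6.0 and 6.17 in PTEC DN RAR mice. That of 25 type I interferon response genes followed the same order of libraries within each genotype, at 6.97, 6.71 and 6.40 and at 5.35, 6.13 and 6.34. So did the interferon receptor and signaling genes described below, at 7.11, 7.03 and 6.95 and at 6.64, 6.76 and 6.81. Infiltrating monocyte markers had this order in PTEC DN RAR mice, at 5.99, 6.14 and 6.32. Inflammasome genes (5.28, 5.27 and 5.35) and DNA sensing genes (5.68, 5.80 and 5.77) did not have it there. Likeness to single genes was measured as the root mean square distance between log2 CPM profiles over the 6 libraries, each centred on its own mean, among 8983 genes outside the family with a mean of at least 10 CPM. Rtp4 was nearest to Ifi204 (distance 0.0553), Trim30a to Mndal (0.0472) and to Ifi203 (0.0673), Gm5431 to Pyhin1 (0.0728), Isg15 to Mnda (0.0905) and Mx2 to Pydc4 (0.1). Of these, Rtp4, Isg15 and Mx2 are in the list of type I interferon response genes. The nearest gene to Aim2 was Alg8 (0.0307), a glycosyltransferase of the endoplasmic reticulum. The profile of Aim2 lay 0.507 to 0.673 from those of the other tested members. Pydc4 was set apart too, at 0.336 to 0.426 from the 5 lower members, which lay 0.0521 to 0.2 from each other. These distances include the genotype difference itself.

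Genes that act with the members were taken from lists. Of 17 inflammasome genes tested, 11 were lower and 0 higher, with a median log2 fold change of −0.41. At an unadjusted p under 0.05, 14 were lower and 1 higher, and DESeq2 called 14 lower and 0 higher. The adaptor gene Pycard was at 105, 82.5 and 89.5 CPM in the controls and at 82.7, 65.2 and 63.4 CPM in PTEC DN RAR mice, with a log2 fold change of −0.39 (SE 0.13, edgeR adjusted p = 0.0409), and its groups overlapped. Casp1 was at 55.1, 67.4 and 55.2 CPM against 37.2, 41.0 and 40.7 CPM, and its log2 fold change was −0.58 (SE 0.10, edgeR adjusted p = 0.00323). The sensor genes Nlrp3 and Mefv had log2 fold changes of −0.90 and −1.13, and the substrates Il1b and Il18 had −0.66 and −0.74, all called lower. Casp8 (−0.75), Casp4 (−0.41), Il1rn, which encodes the antagonist of the interleukin 1 receptor (−1.22), Ninj1, which encodes a protein of membrane rupture (−1.03), and Nek7, which encodes a partner of NLRP3 (−0.27), were lower too. Gsdmd, the gasdermin D gene, had a log2 fold change of −0.23 (SE 0.09, edgeR adjusted p = 0.0624) and Nlrp1b, a further inflammasome sensor gene, of 0.52 (SE 0.20, edgeR adjusted p = 0.0671). Gsdmd was called lower with DESeq2 (adjusted p = 0.0244). Nlrp1b was called higher with limma-voom (adjusted p = 0.0492), no filter (0.04), pan-leukocyte scaling (0.0144) and a replicate block (0.00816), and when Cre- control 2 was left out. Leaving out single mice ended the calls of Pycard, Casp4 and Nek7, and so did pan-leukocyte scaling, with edgeR adjusted p of 0.219, 0.358 and 0.594, under which 8 of the 17 were lower. Pycard also lost its call with at least 10 counts in every library (−0.37, edgeR adjusted p = 0.051).

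Among 25 other DNA sensing genes tested, 11 were lower and 2 higher, with a median log2 fold change of −0.30. The count of lower genes was 4 under pan-leukocyte scaling, 7 without PTEC DN RAR mouse 1 and 6 without PTEC DN RAR mouse 2. Those with the largest differences were Dnase1l3, an endonuclease of extracellular DNA, at 1.30, Ikbke, a kinase of interferon regulatory factors, at −1.06, Slc19a1, a folate carrier that also imports cyclic dinucleotides, at 0.82, and Zbp1, a sensor of Z-form nucleic acid, at −0.79. The call for Zbp1 was lost under pan-leukocyte scaling (edgeR adjusted p = 0.0922), with a replicate block (0.0688) and without Cre- control 1 or PTEC DN RAR mouse 1 or 2 (0.0577 to 0.0795). Named after their values were seen, Mb21d1, which encodes cGAS, had a log2 fold change of −0.67 (SE 0.12, edgeR adjusted p = 0.0037) and Tmem173, which encodes STING, of −0.27 (SE 0.10, edgeR adjusted p = 0.0571). Tmem173 was called lower with DESeq2 (adjusted p = 0.0143), no filter (0.0362), library size alone (0.0438) and a replicate block (0.0462), and when Cre- control 2 was left out. Of 14 genes of interferon receptors and their signaling, 5 were lower and 0 higher. At an unadjusted p under 0.05 the counts were 7 and 0, with DESeq2 7 and 0, and with limma-voom 5 and 0. The receptor genes Ifnar1, Ifnar2, Ifngr1 and Ifngr2 had log2 fold changes of 0.04, −0.11, −0.10 and −0.22, none passing the test, and Ifnar2 and Ifngr1 turned to 0.06 each when libraries were scaled on pan-leukocyte genes. The 5 lower genes were Irf9 (−0.40), Stat2 (−0.61), Usp18 (−0.88), Jak1 (−0.27) and Jak2 (−0.27). With a replicate block Stat2, Usp18 and Jak1 lost their calls, with edgeR adjusted p of 0.068, 0.0839 and 0.0551. Leaving out single mice ended the calls of Jak1 and Jak2 in 5 fits each, of Usp18 in 4 and of Stat2 in 3. Jak1 and Jak2 also lost theirs with at least 10 counts in every library (edgeR adjusted p of 0.0531 and 0.0559). Jak2 did so with library size alone too (0.0726). Under pan-leukocyte scaling 0 of the 14 were lower, and under leave-one-out between 1 and 5.

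Interferon response genes were measured beside the family. Of 25 type I interferon response genes tested, 13 were lower and 0 higher, with a median log2 fold change of −0.73. At an unadjusted p under 0.05 the counts were 18 and 0, and with DESeq2 and limma-voom 15 and 0 each. Oasl2 (−1.18), Isg15 (−1.17), Rtp4 (−1.13) and Ifit1 (−1.05) had the largest falls. The call for Ifit1 was lost under pan-leukocyte scaling (edgeR adjusted p = 0.0666), with a replicate block (0.0599) and without Cre- control 1, Cre- control 2 or PTEC DN RAR mouse 2 (0.0584 to 0.0823). Without Cre- control 2 the count was 8, and under pan-leukocyte scaling 6. Of 18 interferon-gamma response genes, 7 were lower and 2 higher, with a median of −0.52. The count of lower genes was 3 under pan-leukocyte scaling and 11 without PTEC DN RAR mouse 3. Gbp7 (−1.08), Ifi47 (−1.01) and Irgm2 (−0.88), which encode GTPases of host defense, were lower, and Cxcl9, a chemokine gene, was higher at 0.88. These lists were drawn up with earlier results of these libraries known, and their counts are a description.

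**Figure D5:**
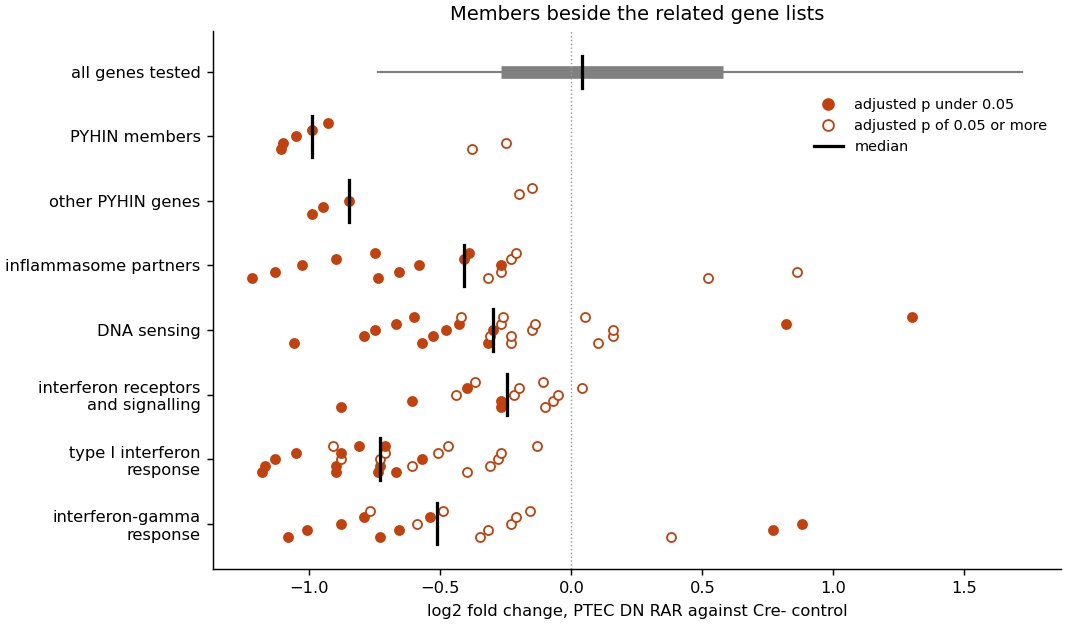
Log2 fold change of PTEC DN RAR against Cre- control for the tested genes of each list (points, filled where the edgeR adjusted p was under 0.05), with the median as a black bar. The grey band and line at the top give the middle 50% and 90% of all 15440 genes. The medians are −0.99 for the members, −0.73 for type I interferon response genes and −0.24 for interferon receptors and signaling.

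Markers of several cell types differed between the genotypes, and their counts are to be read against the 17.1% lower and 23.6% higher of all genes, near which the resident macrophage, B cell and NK and T cell lists lie. In bulk RNA, fewer cells of a type and less RNA per cell cannot be told apart. CD11B+ myeloid markers were present in all libraries, their sum being between 31000 and 32400 CPM in controls and between 24500 and 26600 CPM in PTEC DN RAR mice, and 3 of 12 were lower. Of 10 markers of infiltrating monocytes, F13a1, Fn1 and Chil3 among them, 7 were lower and all 10 had log2 fold changes below 0, and their sum was between 3880 and 4170 CPM in controls and between 1660 and 1730 CPM in PTEC DN RAR mice. Of 12 resident macrophage markers, 2 were lower and 1 higher, with sums of 18300 to 23100 and 19800 to 25300 CPM. Neutrophil markers summed to between 471 and 849 and between 299 and 426 CPM, with 5 of 10 lower. Of 10 dendritic cell markers 4 were higher and 1 lower, of 7 B cell markers 2 were higher, and of 11 NK and T cell markers 2 were higher and 1 lower. Their sums were 103 to 151, 44.0 to 56.9 and 77.0 to 106 CPM in controls, against 123 to 159, 49.0 to 66.4 and 108 to 130 CPM in PTEC DN RAR mice. Markers of kidney cells were higher, 15 of 16 for the proximal tubule, with sums of 1140 to 1370 and 2890 to 4410 CPM, 8 of 10 for the loop and distal nephron and 10 of 10 for endothelium and podocytes. Mitochondrial transcripts took 5.03% to 8.77% of counts in controls and 10.38% to 12.08% in PTEC DN RAR mice. The part of these shifts in the levels of the members was not tested.

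Set against these lists library by library, the summed members came to 34.9, 31.8 and 27.0 CPM per 1000 CPM of CD11B+ myeloid markers in the controls, against 12.5, 22.1 and 26.1 in PTEC DN RAR mice. Per 1000 CPM of resident macrophage markers they came to 48.4, 53.8 and 42.5 against 14.1, 21.6 and 32.3. On both scales the groups did not overlap. Per 1000 CPM of infiltrating monocyte markers they came to 288, 236 and 223 against 191, 327 and 385, and here the groups overlapped, 2 PTEC DN RAR libraries being above all controls. Per 1000 CPM of type I interferon response genes they came to 246, 262 and 274 against 217, 227 and 232, all PTEC DN RAR values again below the controls. On mean log2 CPM, which weighs genes equally, the groups were not parted in this way. There the members lay further below the type I genes in Cre- control 1 (6.83 against 6.97) than in PTEC DN RAR mouse 1 (5.29 against 5.35). The sum of the infiltrating monocyte markers was itself 42.3% of the control mean in PTEC DN RAR mice. Abundant genes weigh most in these sums. Fn1 and F13a1 held 1390 and 606 of the mean 3990 CPM of infiltrating monocyte markers in controls. In PTEC DN RAR mice they held 398 and 119 of 1690 CPM. Lyz2, itself called lower, held 12800 of 31800 CPM of CD11B+ myeloid markers in controls. Apoe held 7490 of 20700 CPM of resident macrophage markers there. Whether the order of libraries holds without these genes was not tested.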

How the data were processed

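RNA-Seq counts of CD11B+ renal cells were analysed for 3 PTEC DN RAR and 3 Cre- control mice, grouped by labelled genotype. The authors deposited raw read counts per Ensembl gene. The submitters' processing notes list STAR 2.5.0a, HTSeq 0.6.1, edgeR, limma and build GRCm38, with no role stated. Read length and strandedness are not given in the sources used here. Ambiguous reads amounted to between 0.457% and 0.527% of each library. Of 46612 gene lines, 9 duplicates were collapsed, and summary lines entered neither library sizes nor tests.

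Low counts were removed with filterByExpr, library sizes were scaled by TMM, and genotypes were compared in edgeR 4.0.16 under R 4.3.3 (glmQLFit, glmQLFTest). The threshold was a Benjamini-Hochberg adjusted p of 0.05 across the 15440 genes left. SE is the size of the log2 fold change over the square root of F. Shares were compared with two-sided exact permutation tests. At the depths found, 3 reads equal 0.0645 to 0.1023 CPM. Annotation was GENCODE M21, promoters were from RefSeq, and matplotlib 3.10.9, scipy 1.17.1 and pandas 2.3.3 were run in Python 3.11. The fits were tested on simulated data with known changes. Alternatives were DESeq2 1.42.0, limma 3.58.1 (voom), other filters and scalings, a replicate block, and leaving out each library.

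Members were matched by symbol, but the family and the lists were chosen with earlier results of these data known. Named genes are the members, other PYHIN genes, tested inflammasome and interferon signaling genes, of other lists the 4 largest called differences with a mean of at least 10 CPM, the nearest profiles, and tested neighbours. Chil3, Mb21d1, Tmem173 and the list sums lie outside this rule or describe whole lists.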

Additional observations from a re-analysis of the deposited data

How the results depend on the processing

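The count of 5 lower and 0 higher members was the same under 12 of the 13 alternatives and was 4 without PTEC DN RAR mouse 2, so leaving out single mice gave 4 to 5 lower. Without Cre- control 1 the 5 included Aim2 and not Mnda. Over the leave-one-out fits the log2 fold change ran from −1.45 to −0.79 for Mnda and from −0.37 to −0.19 for Aim2. Ifi204, Ifi203, Mndal and Pyhin1 stayed lower under all 13, with edgeR, limma or DESeq2 adjusted p of at most 0.0246, and Pydc4 passed under none.

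Scaling on pan-leukocyte genes moved the median of all genes from 0.04 to 0.20. It left 743 genes lower and 4189 higher (15.1% of calls lower, against 2636, 3640 and 42.0%), and lowered the list counts to 2 for other PYHIN genes, 8 for inflammasome genes, 4 for DNA sensing, 0 for interferon receptors and signaling, 6 for type I response and 3 for interferon-gamma response. BC094916 then turned to 0.04, Ifnar2 to 0.06 and Ifngr1 to 0.06. Inflammasome genes higher numbered 1 with limma-voom, with no filter, under pan-leukocyte scaling and with the block. With at least 10 counts in every library, interferon receptor and signaling genes lower numbered 3. The causes were not tested.

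Leaving out single mice gave 0 to 1 inflammasome genes higher, 6 to 13 DNA sensing, 1 to 5 interferon receptor and signaling, 8 to 18 type I and 6 to 11 interferon-gamma response genes lower. Log2 fold changes ran from −0.51 to 0.25 for BC094916, −0.44 to 0.12 for Gm16340, −0.02 to 0.09 for Ifnar1 and −0.53 to 0.05 for Mx2. The difference in share ran from −0.588 to 0.337 percentage points for Ifi203 and from −0.00715 to 0.00281 for Pydc3.

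Replicate numbers join different mice, and deviations of same-numbered libraries correlated at −0.015, 0.211 and 0.029, so the numbers were not taken as pairs. With the replicate number as a block, 5 members were lower, 2606 genes were lower and 3612 higher, and 2 interferon receptor and signaling genes were lower.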
